A study of Pistacia vera with 121 samples.

Results

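The step from 1357 to 1508 growing degree days in the hull of developing pistachio (Pistacia vera, cultivar Kerman) was described from 6 libraries of the 121 in the series. Growing degree days (°C) sum daily heat and stand in for fruit age. The group at 1357 was H17, H18 and H19 (n = 3), and the group at 1508 was H21, H22 and H23 (n = 3). They were chosen by their labels: hull at the later point against hull at the earlier one, without the library H15, which is labelled hull at 1357 and is treated apart below. All groups are untreated tissue of 1 cultivar, sampled at 15 points of fruit development in hull (47 libraries), with shell (35 libraries) and kernel (39 libraries) sampled alongside. Each library gives read counts per gene from total RNA of ground frozen tissue. The labels do not say whether libraries of a group came from separate trees, so p-values measure a spread between libraries that may be technical. For the edgeR tests this spread was estimated within groups over all libraries of a fit, not over these 6 alone.

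The pistachio fruit is a drupe. Its hull is the soft outer fruit wall, its shell is the inner fruit wall that hardens into the stone, and its kernel is the seed. The fruit wall grows first, the shell then hardens, the kernel fills, and the hull ripens and loosens last. In RNA from whole tissue, fewer cells of a type and less RNA per cell cannot be told apart.

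Totals of the 6 libraries ran from 9041550 to 12850647 counts, of which 8372885 to 12681994 fell on the genes numbered by chromosome (identifiers starting PvKer). The comparison was defined on these genes, so features named after assembly contigs were left out. Those features took 7.395% of the counts of H21 and 0.657% to 1.31% of the other 5 libraries. Each of the 6 libraries correlated best with the rest of its own group (r 0.984 to 0.992 over genes, the library itself left out). The group that came next was hull at 1106 for H17, H18 and H19 (0.971 to 0.974). For H21, H22 and H23 it was shell at 1508 (0.960 to 0.966), ahead of every other hull point. H15 correlated at 0.978 with shell at 1223 and at 0.924 with its labelled group. Within a group, pairs of libraries correlated at 0.967 to 0.977, and pairs across the step at 0.921 to 0.942. The hull label could not be checked with known marker genes, because the identifiers carry no gene names and none of them matched the reference gene table. It was checked with genes whose mean level, over 6 other sampling points, was at least 1 CPM (counts scaled to a common library size) and at least 4 times that of both other organs. The 74 hull genes of this kind took 0.429% to 0.630% of counts at 1357 and 0.527% to 0.688% at 1508, against a median of 0.0579% in the shell libraries and 0.0169% in the kernel libraries of those 6 points. Single shell libraries reached 0.464% for these genes, and single hull libraries of those points went down to 0.0253%. The 236 shell genes took 0.0765% to 0.0822% at 1357 and 0.0834% to 0.104% at 1508, against a median of 0.496% in shell. Single libraries ran from 0.0502% to 1.83% in shell and from 0.0342% to 0.394% in hull. These sums thus do not part hull from shell in every library. H15 stood at 0.118% for the hull genes and 1.69% for the shell genes.

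Between the libraries at 1357 and those at 1508 the hull differed widely. All libraries of a point share its label, and no label gives a batch. Fruit age therefore cannot be told apart from the conditions or handling of that sampling. Of 18996 genes tested, 1591 (8.38%) were called higher and 2067 (10.9%) lower at 1508 by edgeR's quasi-likelihood test, at an adjusted p below 0.05 and a log2 fold change of at least 1 in size. Without the fold threshold 3508 genes were higher and 3433 lower. The median log2 fold change over all genes tested was -0.0782. In 1544 of the rises and 1986 of the falls, every library of one point lay above every library of the other. Over all genes tested the groups were apart in this way for 4524 genes (23.8%) with 1508 above and 4917 (25.9%) with 1508 below, and the call itself favours such genes. With 1 of the 6 libraries left out, 1287 to 1604 genes were called higher and 1696 to 2282 lower.

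**Figure D1:**
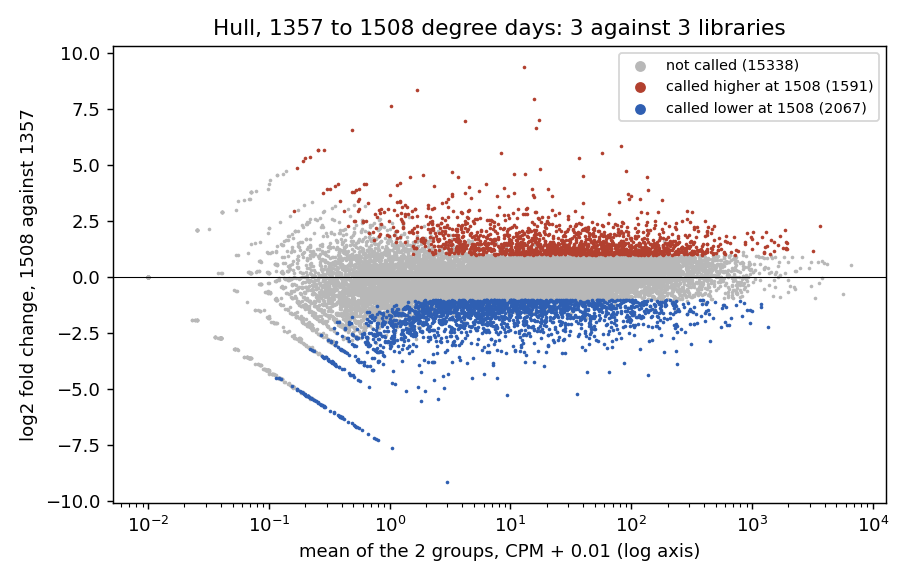
Log2 fold change of each gene in hull, 1508 against 1357, over its mean level in CPM on a log axis. Points are genes, with the 1591 called higher in red and the 2067 called lower in blue.

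Falls were larger than rises in fold, and they concerned genes of lower level. The median log2 change was 1.43 in size (quartiles 1.17 and 1.92) among the genes called higher and 1.63 (1.28 and 2.26) among those called lower. A log2 change of 2 or more was fitted for 357 of the rises (22.4%) and 700 of the falls (33.9%). Some of these genes had no count at all at the lower point, 10 among the rises and 66 among the falls, and their fitted folds are no bounds. With such genes set against a floor of 3 counts over the group, the medians were 1.43 and 1.63, and 355 rises and 690 falls reached 2. At the point where it was higher, the median called gene had 41.7 CPM among the rises and 10.1 CPM among the falls.

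The genes called higher took 8.22% to 9.35% of the counts in the 3 libraries at 1357 and 19.3% to 21.1% in the 3 at 1508. Those called lower took 10.7% to 12.2% at 1357 and 3.05% to 3.89% at 1508. These sums follow from how the genes were chosen and are given for their size. The change was spread over many genes: the 10 largest gains made up 15.1% of the summed gain of the called genes and the 100 largest 51.2%. For the losses the values were 13.6% and 51.7%.

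How counts were spread over genes moved in the same libraries. At 1357 the libraries had 20445, 20454 and 20499 genes with a count, and at 1508 they had 19201, 19971 and 19812. The groups did not overlap, with 20466 ± 28.9 genes (SD, n = 3) against 19661 ± 407 (SD, n = 3). The 100 most abundant genes took 16.65%, 17.04% and 16.9% of counts at 1357 and 17.8%, 20.03% and 19.4% at 1508. Here too the groups did not overlap. Each of these 2 differences had an exact two-sided permutation p of 0.1, the smallest that 3 against 3 libraries allow. The 10 most abundant genes took 3.92% to 4.43% at 1357 and 3.96% to 5.02% at 1508, where the groups overlapped (difference 0.317 percentage points, exact permutation p 0.4). With contig-named features kept, the difference for the 100 most abundant genes was 3.88 percentage points in place of 2.24 (exact permutation p 0.1). H21, the shallowest of the 6, had the fewest genes, and without it the difference in genes with a count was -574.5. H22 and H23 had fewer genes than H18 and H19 at larger PvKer totals, and fewer than H17 at smaller ones. The part of depth in the difference was not tested. Counting genes that reach 1 CPM instead, the difference was -878 genes (exact permutation p 0.1).

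Genes seen at 1 point and nearly absent at the other were more often those lost. A mean of at least 1 CPM at 1357 with at most 3 counts in all at 1508 was found for 40 genes, of which 13 reached 1 CPM in each library at 1357. The reverse was found for 8 genes, of which 3 reached 1 CPM in each library at 1508. Among these 8, a single library was at least 4 times the other 2 in 2 genes, both times H22.

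The deposited table pairs no identifier with a gene name, so 4 genes stand for the rest, chosen by a fixed rule. In each direction these are the called gene with the largest fold and the called gene with the largest change in CPM, among genes of at least 10 CPM at the higher point whose groups did not overlap. The rule was met by 1216 genes that rose and 1032 that fell. No sequence is shown, since no file used here holds the sequence of an identifier.

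The rise that was largest in CPM was that of PvKer.10.g252740. Its level was 1410, 1235 and 1105 CPM at 1357 and 5581, 5250 and 7188 CPM at 1508. Every library at 1508 stood far above every library at 1357, and the gene moved from rank 49 to rank 2 of 18996 genes by mean CPM. The means were 1250 ± 153 CPM (SD, n = 3) and 6006 ± 1037 CPM (SD, n = 3), giving a log2 fold change of 2.26 ± 0.33 (SE; edgeR adjusted p 1.62e-06). In the hull libraries before and after the step the level was lower than at both points: 697 to 908 CPM at 1106 and 1223, and 306 to 1094 CPM at 1657 and 1759. At 1508 alone the gene stood above 1410 CPM.

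Among the 1216 rises that met the rule, the largest fold was that of PvKer.14.g331260, and 1 library decided it. Its counts were 0, 0 and 1 at 1357, and 11, 834 and 1 at 1508. H22 was high, while H23, with 1 count, equalled H19 in counts and passed it narrowly in CPM, at 0.0921 against 0.0879. From 1 count in 33952809 at 1357 and 846 in 32603291 at 1508, the ratio was 881 (95% exact interval 158 to 34839, covering counting error only). The adjusted p was 0.000307 by edgeR. Without H22 the ratio was 19.6 (2.91 to 839), the fitted log2 change fell from 9.39 to 4.22, and the adjusted p was 0.0973 by edgeR, so the call was lost.

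The fall that was largest in CPM was that of PvKer.10.g249190. Its level was 2370, 2107 and 2232 CPM at 1357 and 437, 593 and 412 CPM at 1508. The groups lay far apart, and the gene went from rank 17 to rank 368. The means were 2236 ± 132 CPM (SD, n = 3) and 481 ± 98.3 CPM (SD, n = 3), giving a log2 fold change of -2.22 ± 0.2 (SE; edgeR adjusted p 2.16e-10). It stood at 862 to 1663 CPM at 1106 and 1223 and at 804 to 1858 CPM at 1657 and 1759. The point 1357 was thus above these neighbours in each library, and 1508 below them in each library.

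Among the 1032 falls that met the rule, the largest fold was that of PvKer.08.g202580, with 16.6, 21.9 and 15.8 CPM at 1357 and 0.131, 0.549 and 0.645 CPM at 1508. Behind these values stood 213, 240 and 180 counts and then 1, 6 and 7 counts. The groups did not come near each other. The log2 fold change was -5.24 ± 0.7 (SE; edgeR adjusted p 3.61e-07). Its level was 8.81 to 19.4 CPM at 1106 and 1223 and 1.7 to 6.39 CPM at 1657 and 1759. The later libraries thus lay above those at 1508 and below those of the earlier points, with no overlap on either side.

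**Figure D2:**
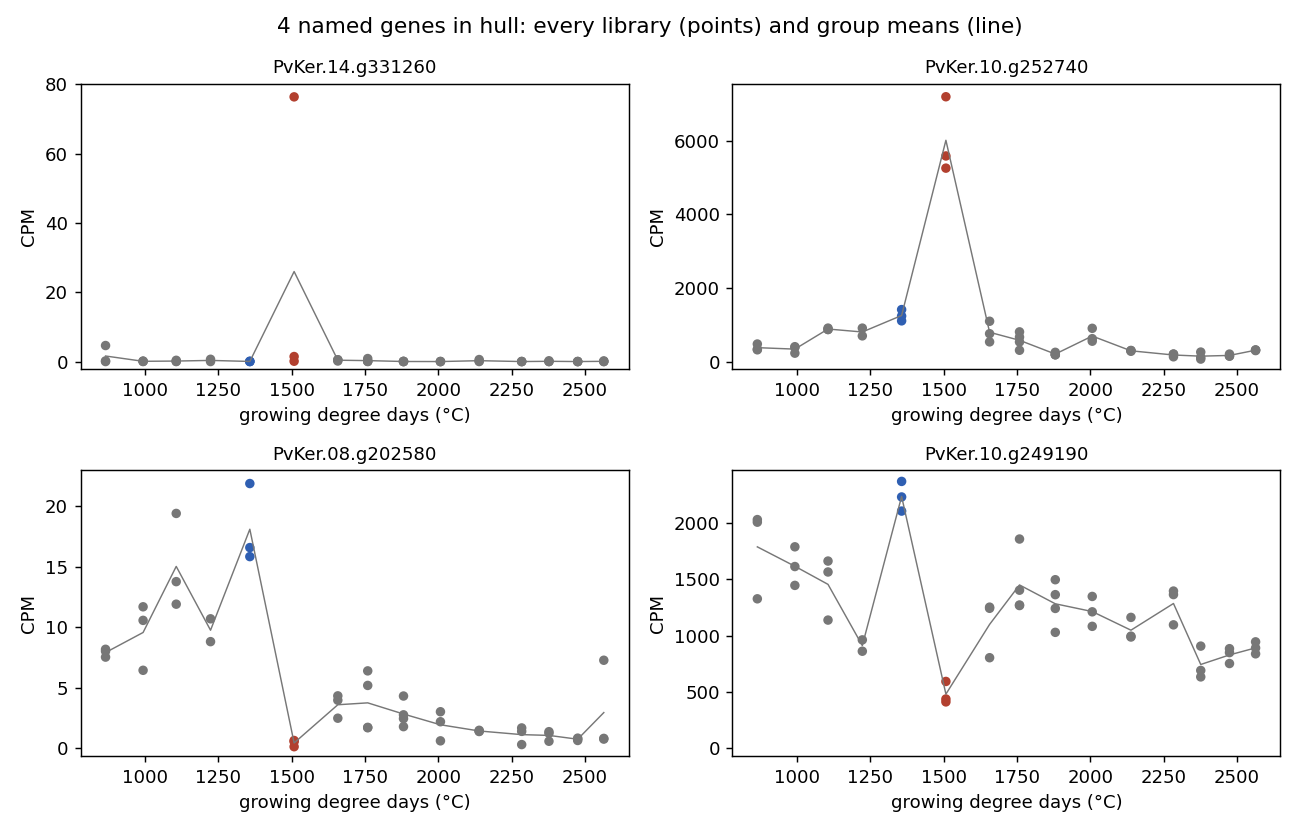
Level in CPM of the 4 named genes in every hull library except H15, over growing degree days. Blue points are the libraries at 1357, red those at 1508, and the line joins group means. PvKer.10.g252740 peaked at 1508, PvKer.10.g249190 had its lowest group at 1508, and the PvKer.14.g331260 peak is 1 library.

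Whether the change at 1508 lasted was asked with hull libraries of other points, which entered the step's calls only through the shared filter, scaling and estimate of spread. The points after it, 1657 and 1759 (n = 7), were compared with the points before it, 1106 and 1223 (n = 5), in the same fit. Over all genes tested, 623 (3.28%) were called higher and 1376 (7.24%) lower after than before. Among the 1591 genes called higher in the step, 85 (5.34%) were called higher after, 96 (6.03%) lower and 1410 (88.6%) neither. Among the 2067 called lower in the step, 369 (17.9%) were called lower after, 56 (2.71%) higher and 1642 (79.4%) neither. The step's falls thus held 26.8% of the genes lower after, and its rises 13.6% of the genes higher after. The median log2 change from before to after was 0.111 over the step's rises, -0.295 over its falls and -0.00191 over all genes. Without a minimum fold change, 942 of 3508 rises were called higher after and 386 lower, with 3052 higher and 2888 lower over all genes tested. Which direction held more of the rises thus depended on that threshold. With and without it, the rises had a larger share higher after, and a smaller share lower after, than all genes tested.

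Among the named genes, PvKer.08.g202580 was called lower after than before (log2 change -1.71 ± 0.383 SE, adjusted p 0.000829 by edgeR). PvKer.10.g252740 and PvKer.10.g249190 gave -0.31 ± 0.228 (SE, adjusted p 0.308 by edgeR) and 0.13 ± 0.139 (SE, adjusted p 0.498 by edgeR) and were not called.

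The levels of the called genes over the season showed the same course. Levels were taken as log2(CPM + 0.5) against each gene's own mean over the 13 sampling points outside the step. The genes called higher had a library median of -0.219 to -0.0859 at 1357 and 1.08 to 1.32 at 1508. Their medians were 0.115 to 0.170 at 1106 and -0.0320 to 0.273 at 1657, and no library of the other 13 points exceeded 0.348. The genes called lower had 0.352 to 0.488 at 1357 and -1.06 to -0.840 at 1508. They were highest in the youngest hull, with 0.461 to 0.751 at 865 and 0.525 to 0.799 at 993, and no library outside the step was below -0.430. The genes were chosen by the difference between 1357 and 1508, and the levels at the other points were not part of that difference.

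**Figure D3:**
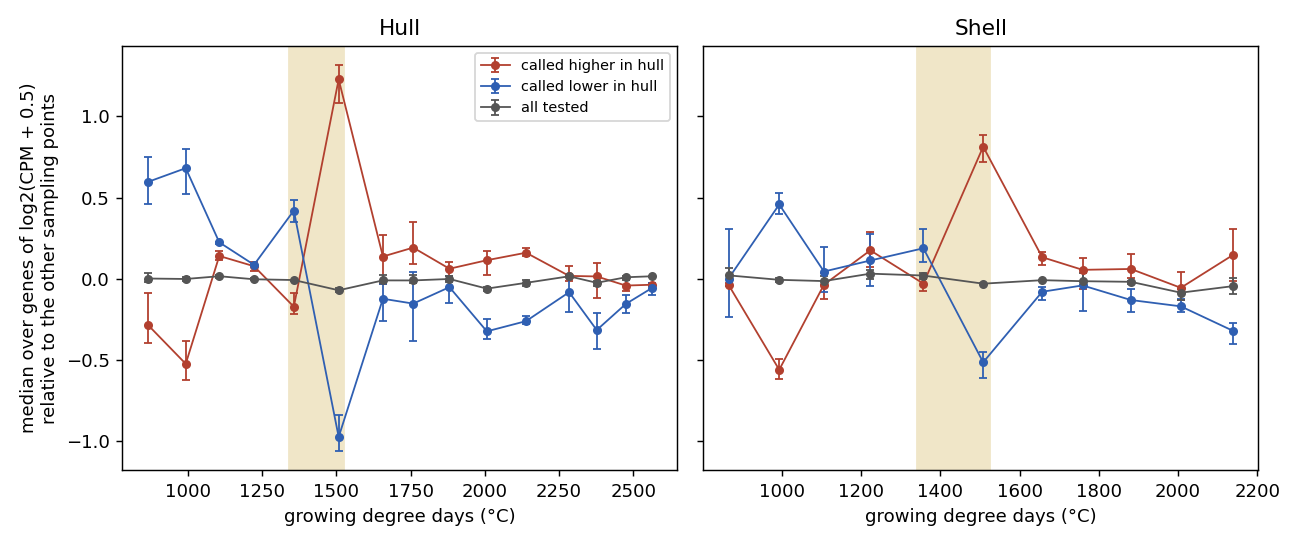
Median over genes of log2(CPM + 0.5), relative to each gene's mean over the sampling points other than 1357 and 1508, in hull (left) and shell (right). Lines join the mean of library medians, bars span the lowest and highest library, red and blue are the genes called higher and lower in hull between 1357 and 1508 (shaded), and grey is all genes tested. In both organs the red genes were highest and the blue genes lowest at 1508.

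The season outside the step also set the genes apart by where they were highest. Of 7529 tested genes with their highest other hull point at 865 to 1223, 470 (6.24%) were called higher and 1310 (17.4%) lower. Of 4816 genes highest at 1657 to 2007, 506 (10.5%) were called higher and 275 (5.71%) lower. Of 6651 genes highest at 2139 to 2564, 615 (9.25%) were called higher and 482 (7.25%) lower. By single points, genes highest at 993 had the largest share of falls (591 of 2105, 28.1%) and the smallest share of rises (18, 0.855%). Genes highest at 1106 had the largest share of rises (198 of 1068, 18.5%), ahead of those highest at 1759 (199 of 1207, 16.5%). Those highest at 1759 had the smallest share of falls (34, 2.82%). These shares describe the genes and were not tested.

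By mean level in the other hull libraries, rises were called for 4.31% of genes under 1 CPM, 8.78% at 1 to 10 CPM, 8.84% at 10 to 100 CPM and 10.98% at 100 CPM or more. Falls were called for 7.76%, 15.6%, 9.21% and 9.22% in the same order. Over all genes tested, 8.38% were called higher and 10.9% lower. Of the 74 hull genes described above, 5 (6.76%) were called higher and 15 (20.3%) lower. Of the 1520 tested kernel genes of the same kind, 131 (8.62%) were called higher and 143 (9.41%) lower, shares near those over all genes. The summed share of counts of all 1993 kernel genes was 2.15% to 2.79% at 1357 and 1.96% to 2.72% at 1508, against a median of 2.02% in the hull libraries and 50.01% in the kernel libraries of the 6 points that chose them. Of the 1993, 85 had no count in the 6 libraries. Of 214 tested shell genes, 10 (4.67%) were called higher and 13 (6.07%) lower.

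Shell was sampled at the same points (3 libraries each), and the step was compared between the organs in 1 fit of 81 hull and shell libraries with 19953 genes. In shell 1496 genes (7.5%) were called higher and 2022 (10.1%) lower at 1508, and in this fit hull had 1506 (7.55%) higher and 2001 (10%) lower. The rises shared 656 genes, 43.6% of the hull list and 43.9% of the shell list. The falls shared 692 genes, 34.6% and 34.2%. Opposite calls were few in both lists. In shell, 9 of the 2001 hull falls were called higher (7.5% over all genes tested). Of the 1506 hull rises, 54 were called lower in shell (10.1% over all genes tested). Over the hull rises the median log2 change was 1.43 in hull and 0.95 in shell, and over the hull falls -1.63 and -0.93. The first value of each pair chose the genes, so the shell value, which was not part of the hull difference, is the one to read.

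The difference between the organs was itself tested. The change from 1357 to 1508 differed between hull and shell for 1524 genes (7.64%), of which 1052 (5.27%) had the higher change in hull and 472 (2.37%) the lower, at an adjusted p below 0.05 by edgeR. Of the 850 hull rises not called in the same direction in shell, 300 differed between the organs by this test and 550 did not pass it. Of the 1309 such hull falls, 148 differed and 1161 did not pass. A further 326 of the genes that differed were called lower in shell and not called in hull, and 140 were called higher in shell and not called in hull. Another 574 were called in neither organ, and 36 were called the same way in both. This count rests on few libraries: it was 976 without H17 and 801 without S19 (shell, 1357). Its 2 directions moved over 1.5 times with more of them. Genes with the higher change in hull were 693 without H23 and 641 without S19. Genes with the lower change were 209 without H17, 287 without H18, 312 without H21, 282 without S21 and 160 without S19. With H15 kept under its label the count was 472, with 286 higher and 186 lower.

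**Figure D4:**
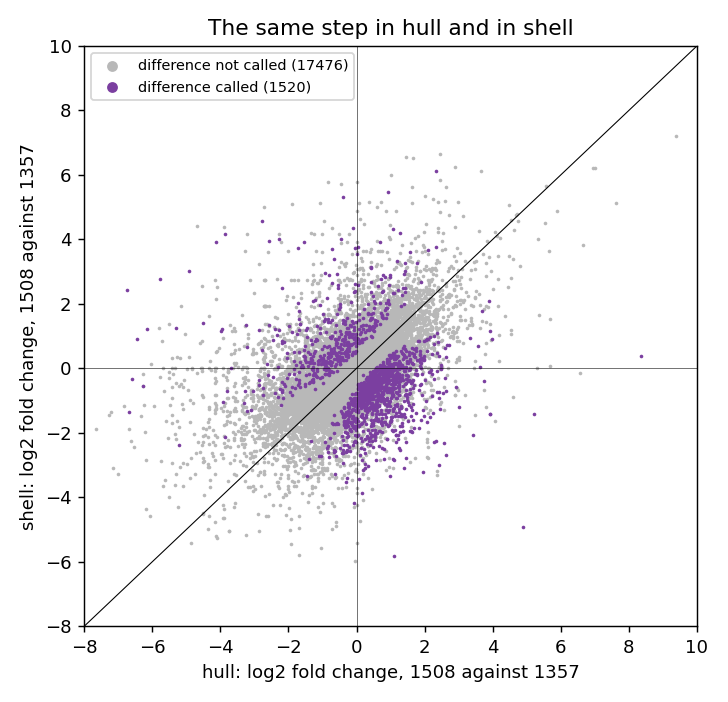
Log2 fold change from 1357 to 1508 in shell over that in hull, 1 point per gene, for 18996 genes tested in both fits. Purple marks the 1520 of them whose change differed between the organs, and the diagonal is equal change.

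The 4 named genes were called in the same direction in shell, and for PvKer.10.g252740, PvKer.10.g249190 and PvKer.08.g202580 the shell groups did not overlap. PvKer.14.g331260 had 0 to 0.0993 CPM in shell at 1357 and 0, 3.69 and 25.2 CPM at 1508, so its groups overlapped there, although it was called higher (log2 change 7.2 ± 1.88 SE, adjusted p 0.00218 by edgeR). Its difference between organs was 2.22 ± 4.05 (SE, adjusted p 0.822 by edgeR) and was not called. On a scale common to all organs, PvKer.10.g252740 went from 501 ± 31.7 CPM to 1581 ± 325 CPM in shell (SD, n = 3 each) and from 1185 ± 134 to 5674 ± 955 CPM in hull. The difference of the log2 changes, hull minus shell, was 0.63 ± 0.418 (SE, adjusted p 0.412 by edgeR) and was not called. PvKer.10.g249190 went from 1427 ± 204 to 659 ± 182 CPM in shell, a smaller fall than in hull, where it went from 2121 ± 120 to 455 ± 97.7 CPM. Here the difference of -1.08 ± 0.274 (SE) was called (adjusted p 0.00695 by edgeR), and with H15 kept it was not (adjusted p 0.164 by edgeR). PvKer.08.g202580 went from 3.72 ± 1.65 to 0.182 ± 0.193 CPM in shell, with a difference of -0.97 ± 1.32 (SE, adjusted p 0.742 by edgeR) that was not called. In kernel PvKer.10.g252740 stood at 19.5 ± 3.16 CPM at 1357 and 34.8 ± 13.75 CPM at 1508, far below both fruit wall organs.

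Libraries of the 1508 group differed from each other in a small set of genes. H22 was at least 4 times above both H21 and H23, with at least 5 CPM, in 32 genes. The same was true of 1 gene each for H21 and H23, and of 1, 5 and 2 genes for H17, H18 and H19 at 1357. Of the 32 genes, 28 were among those called higher (8.38% over all genes tested), in a comparison that H22 took part in. Without H22, 9 of the 28 (32.1%) were still called higher, against 1420 of all 1591 (89.3%). Choosing the genes on H22 favours such a loss. On the scale common to all organs, their median over genes was 51.1 CPM in H22, 4.5 CPM in H21 and 3.25 CPM in H23, and 1.94 to 3.33 CPM at 1357. Being chosen on H22, the genes had to be high there, and 17 of the 32 were higher in some other library of the series. By their median, S23 (shell, 1508) at 24.5 CPM was level with the kernel libraries K39, K33 and K43 at 24.2, 23.6 and 23.2 CPM, while S21 and S22 had 5.08 and 1.83 CPM. By their summed share of counts, K43 (0.351%) and K33 (0.342%) were above H22 (0.299%), and S23 had 0.193%. In kernel at 1357 the median reached 21.8 CPM in 1 of the 3 libraries. In hull outside 1508 no library passed 8.38 CPM. Of the 32 genes, 11 (34.4%) belong to the kernel genes described above and 21 to no organ. Over all 18996 genes tested, 1520 are kernel genes. The kernel genes as a whole took 2.72% of the counts of H22, against 1.96% in H21 and 2.26% in H23, and 2.15% to 2.79% at 1357. PvKer.14.g331260 is among the 32 and is a kernel gene by that definition, with 61.3 ± 95.6 CPM (SD, n = 3) at kernel 1357, where a single library had 172 CPM. Their shared cause was not tested.

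**Figure D5:**
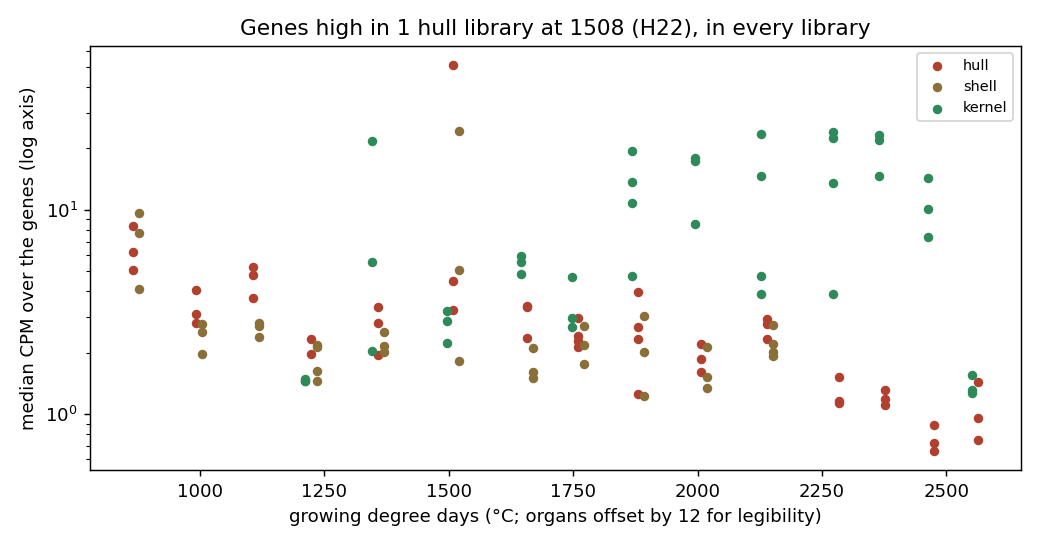
Median CPM (log axis) of the 32 genes that were high in H22, in every library but H15, over growing degree days, with organs offset by 12 degree days. H22 is the highest point, at 51.1 CPM, and S23 of shell at 1508, at 24.5 CPM, is level with the highest kernel libraries.

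Called genes were found on all 15 chromosome numbers in similar shares, from 6.83% to 9.65% of tested genes for rises and from 8.83% to 12.8% for falls. Runs of at least 3 neighbouring identifiers that were called in the same direction numbered 6 for rises (19 genes) and 29 for falls (91 genes), and the longest held 4 genes. Among the rises, 3 neighbours on chromosome 15 together went from 1054 to 1351 CPM at 1357 to 2690 to 3495 CPM at 1508. Among the falls, 4 neighbours on chromosome 3 went from 1376 to 2141 CPM at 1357 to 459 to 619 CPM at 1508. Neighbouring identifiers can be near copies that share reads, and how such reads were assigned is not given in the sources used here. The number of runs that chance would give was not computed.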

How the data were processed

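RNA of 121 libraries was sequenced as paired-end reads of 150 bp after a TruSeq kit, per the labels' protocols. The deposited table holds raw counts, 1 column a library, with no scaling. Trimmomatic 0.39 and Bowtie2 2.3.4.1 are named in the submitters' processing notes. For the counting tool, strand setting, genome build and annotation the sources used here give nothing, so counts of overlapping genes and near copies are uncertain. Of 38315 identifiers, the 37063 starting PvKer were used, and 0 matched the reference gene table (assembly PisVer_v2).

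Genes were compared with edgeR 4.0.16 under R 4.3.3 (TMM, filterByExpr by group, glmQLFit, glmQLFTest, Benjamini-Hochberg over all genes tested), with 1 mean per sampling point. The hull fit held 46 libraries and the hull and shell fit 81, both without H15. A standard error is the size of a log2 change over the root of its F statistic. CPM are scaled by TMM. Libraries of a group differed by more than sampling noise (chi-square per degree of freedom at least 10.01). On simulated counts with 200 genes changed 4-fold, the step test recovered 99% with 12 other calls (18996 genes), the test of after against before 100% with 3 (18996 genes), and the organ difference 84% with 12 (19953 genes). The simulated counts had the same spread for every gene, no other change between groups and no outlying library. Changed genes were not taken from the lowest levels. These shares check the code and do not give the power of the tests in the data. Intervals cover counting error only. The alternatives were DESeq2 1.42.0 and limma 3.58.1 (voom), other scalings and filters, contig-named features, H15, and libraries left out. Libraries were left out singly, and H33, H34 and S14 together. No label gives a batch. Members, gene classes and the rule for named genes (largest fold and largest change in CPM in each direction, at least 10 CPM, groups apart) were chosen with earlier results of these data known.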

Additional observations from a re-analysis of the deposited data

Results flagged for a closer look

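Libraries far from the others of their group were sought in the 3 hull groups of 4 libraries, for 3 measures of composition and the 4 named genes. Of 21 combinations 4 were marked, and chance marks about 1 in 20. H15, labelled hull at 1357, had 714.5 CPM of PvKer.10.g249190 against 1992 to 2229 CPM in H17, H18 and H19, on the scale common to all organs. This gene was chosen for its fall from the level in H17, H18 and H19, without H15, which favours such a gap. H36 (hull, 1881) had 7.331% of its counts in contig-named features against 0.323% to 0.5003% in its group. For PvKer.14.g331260, H30 (hull, 1759) had 0.8174 CPM against 0 to 0.136 CPM, and H35 (hull, 1881) had 0.06025 CPM against 0 in the others, levels that rest on few counts.

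Outside the genes analysed, H21 (hull, 1508) had 7.395% of its counts in contig-named features, above the 0.806% to 1.31% of the libraries at 1357. H22 and H23 had 1.19% and 0.657%.

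The change from 1357 to 1508 differed between hull and shell for 1524 genes by edgeR. Of the named genes, PvKer.10.g249190 differed, with a log2 change lower by 1.082 in hull than in shell (-1.082). The difference was -1.27 to -0.88 with 1 of the 12 libraries left out.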

How the results depend on the processing

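Of 440 recomputed values of 26 results, 409 kept their direction and their side of the threshold, or for counts stayed within 1.5 times. Some of these could not have moved. The composition differences could not change side, since the smallest exact p of 3 against 3 libraries is 0.1. For the named genes, the setting without a minimum fold change repeats the main fit. Without a minimum fold change, the step had 3508 genes higher and 3433 lower, and after against before had 3052 higher and 2888 lower. Of the step's rises 942 were then higher and 386 lower after, and of its falls 425 higher and 789 lower. In shell 2927 genes were then higher and 3375 lower, with 1718 rises and 1399 falls in both organs. With H15 kept, the organs differed in 472 genes (286 with the higher and 186 with the lower change in hull), and both organs shared 1104 falls. Among the step's calls 34.4% were then rises, against 43.5%. DESeq2 on the 6 libraries called 1662 genes higher and 1953 lower, and limma-voom 1626 and 2033. With 1 library left out, the count of genes that differed between organs was 801 to 1565, with 641 to 1065 higher and 160 to 500 lower in hull. The difference between organs ran from -2.98 to 4.57 for PvKer.14.g331260 and from -1.52 to 0.136 for PvKer.08.g202580 with 1 library left out. It changed sign without H22 for the former and without S21 for the latter, and was not called in either case. The share of contig-named features was higher at 1508 by up to 3.28 percentage points with 1 library left out, and changed sign without H21 (-0.0881). The cause of these changes was not tested. PvKer.14.g331260 was filtered out where only the 6 libraries were fitted. Titles share numbers between organs (H17 and S17), but no label says what a number marks. Deviations from the group mean correlated at -0.234 to 0.0793 in the 6 same-numbered pairs at 1357 and 1508, none over 0.1. Pairs with different numbers ran from -0.151 to 0.212, the highest being H22 with S23. Of 6 hull libraries, 1 correlated best with its own number, so the numbers were not taken as pairs. With that number as a replicate block, an alternative chosen after seeing the data, 1151 genes differed between organs (800 higher and 351 lower in hull), 1051 of them among the 1524. In that fit PvKer.14.g331260 changed sign (-0.183), uncalled in both fits, and PvKer.10.g249190 kept its call (adjusted p 0.0336 by edgeR). Within hull, libraries of different points share no number.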
